A study of Mus musculus with 6 samples.

Results

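Blood-brain barrier type endothelial cells were followed in single-cell RNA sequencing of the meninges and cortical surface of adult C57BL6 mice of either sex, and 501 of 8804 filtered cells belonged to them. Members were chosen by their own UMI counts of 19 genes. A cell was a member with a unique molecular identifier (UMI, 1 counted transcript) of at least 3 of the 6 transporter and barrier genes Slco1a4, Slc2a1, Slc38a5, Slco1c1, Abcb1a and Spock2 and of at least 2 of the 4 endothelial genes Pecam1, Cldn5, Flt1 and Ly6c1. It also had to lack any UMI of Plvap, a component of the diaphragms of fenestrae and caveolae, of the leukocyte gene Ptprc and of the smooth muscle gene Cnn1, and to have at most 1 of the 6 arterial genes Gkn3, Sema3g, Bmx, Cytl1, Stmn2 and Fbln5.

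Cells were obtained in 2 ways: from the surface of the dorsal cortex, labelled brain (cortical surface-associated, CSA, 4 libraries), and from the tissue on the inner side of the skull, labelled dura/skull (bone-associated, BA, 2 libraries). Each library pooled wild-type animals of both sexes that had not been perfused, and live nucleated cells (DRAQ5 positive, propidium iodide negative) were sorted before capture on the 10x Genomics Chromium system. No animal was treated, so the preparation was the only condition. Labels told the libraries of 1 preparation apart by a run number alone. The number of mice pooled also differed between cortical surface runs, though not between bone-associated runs. P-values measure the spread between these pools.

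Endothelial cells of the brain are joined by continuous tight junctions, form few vesicles and carry nutrients across by dedicated transporters while efflux pumps return drugs and toxins to the blood. This state is kept up by Wnt and beta-catenin signalling from the surrounding tissue, and it is known to be weaker or absent in vessels of the dura, where many endothelial cells are fenestrated and contain Plvap. The membership rule draws on capillary and venous cells of barrier type, since arterial cells were held out by their own genes.

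The cortical surface libraries held 50, 149, 66 and 154 members and the bone-associated libraries 27 and 55. Members had a median of 6487, 6986, 4127 and 3855.5 UMIs in cortical surface libraries 1 to 4, and of 9775 and 8221 UMIs in the bone-associated libraries. Bone-associated members were therefore the most deeply read and those of cortical surface libraries 3 and 4 the least. All 6 transporter genes were found in 229 members, 5 in 182, 4 in 69 and 3 in 21, while 10 further cells that met the other criteria held 2. Members with just 3 of the genes had a median of 3065 UMIs, and the cells with 2, just outside the limit, a median of 2239 UMIs. Another 72 cells met the criteria except that they held Plvap. All of those 72 were bone-associated, 23 in library 1 and 49 in library 2, and 11 of them held a single Plvap UMI. No barcode was shared between members of different libraries, although 70 of all 17560 barcodes occurred in more than 1 library, 1 of them that of a member.

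The libraries differed in the RNA of other cells. In members of cortical surface libraries 3 and 4, hemoglobin genes took 3.90% and 15.3% of all UMIs, against at most 0.104% in the other libraries. In cortical surface library 1 a single member had 110135 UMIs (the next deepest of that library had 19933), held all 6 choroid plexus genes searched, and gave 28482 UMIs of Ttr, the transthyretin of choroid plexus epithelium. That cell made up 24.2% of the member UMIs of its library. Pericyte genes, led by Vtn, summed to a TMM-scaled CPM of 831 in members of cortical surface library 2, and microglia and macrophage genes, led by C1qa, to 451 and 992 in cortical surface libraries 3 and 4, against at most 114 and 87 elsewhere. The T cell genes Cd3e and Trac, the neuronal genes Rbfox3, Gad1 and Slc17a7 and the oligodendrocyte genes Mog and Sox10 had no UMI in members. Fewer than 2 genes of every other cell type's list were held by 174 of the 501 members, none of them in cortical surface libraries 3 and 4. With the red blood cell list set aside, 373 members remained. The count of calls without such cells, that list set aside, is given below. The part of such cells in single results was not tested.

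The label was checked against barrier genes that the rule did not use. After each cell was thinned to 1500 UMIs, which left 486 members, Itm2a was found in 94.2% of members, the efflux pump Abcg2 in 70.8%, the Wnt-responsive transcription factor Lef1 in 41.4%, Car4, a carbonic anhydrase of brain capillaries, in 35.8%, Foxq1 in 34.0%, the tight junction gene Ocln in 29.6%, the organic anion transporter Slc22a8 in 25.7% and the lipid transporter Mfsd2a in 9.47%. T cells, which should lack most of these genes, served as background for free RNA. Of 703 T cells thinned alike, none had a UMI of Car4, Foxq1, Ocln or Mfsd2a. With a floor of 3 counts over these cells, this allows a share of up to 0.427%. Lef1, which T cells also express, was found in 15.8% of them, Itm2a in 6.12%, and Abcg2 and Slc22a8 in 0.569% and 0.142%. The members thus carried these genes above this background. Other endothelial cells held some of them too: Abcg2 was found in 44.3% of Plvap-positive and 24.3% of arterial cells, Itm2a in 33.1% and 30.4%, and Foxq1 in 2.79% and 25.7%. The arterial shares pool the preparations. In cortical surface libraries 1, 2 and 4 Foxq1 stood at a TMM-scaled CPM of 325, 358 and 450 in arterial cells and 216, 361 and 320 in members. Bone-associated arterial cells stood at 32.0 and 24.7. Ocln stood at 178, 162 and 199 in the same cortical surface arterial cells and at 37.3 and 45.9 in bone-associated ones. Genes of veins ranged widely, from Ackr1, the atypical chemokine receptor of venules, in 4.73% of members and Lcn2 in 5.97% to Il1r1 in 20.6%, Nr2f2 in 25.1%, Ctsc in 30.7% and Ctla2a in 68.1%. Of T cells, 6.83% held Il1r1, 0.142% Nr2f2, 7.25% Ctsc and 24.9% Ctla2a. Whether these shares, or that of Itm2a, were free RNA or the T cells' own RNA was not tested.

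Levels below are UMIs summed per library and cell group and given as CPM (counts scaled to a common total), with TMM factors over 13 sums (TMM-scaled CPM). They compare 1 gene between cell groups and do not rank genes. The 6 transporter genes chose the members, so their levels are a description. Slco1a4, an organic anion transporter, stood at 1514, 1924, 1742 and 1915 in members of cortical surface libraries 1 to 4 and at 2083 and 1452 in the bone-associated libraries. Slc2a1, the glucose transporter of the barrier, stood at 1280, 1608, 1398 and 1192 against 1768 and 1691. Slc38a5, an amino acid transporter, stood at 431, 645, 682 and 676 against 557 and 588. The preparations overlapped in Slco1a4 and Slc38a5, whereas both bone-associated libraries had more Slc2a1 than any cortical surface library. Abcb1a, which encodes the drug efflux pump P-glycoprotein, stood at 1172, 1229, 1270 and 1365 against 1748 and 1079. Spock2, a proteoglycan, stood at 1161, 1424, 1139 and 839 against 1698 and 1038. Slco1c1, which carries thyroid hormone, was the most uneven, at 516, 618, 695 and 555 against 701 and 167, so that bone-associated library 2 lay below all others.

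**Figure D1:**
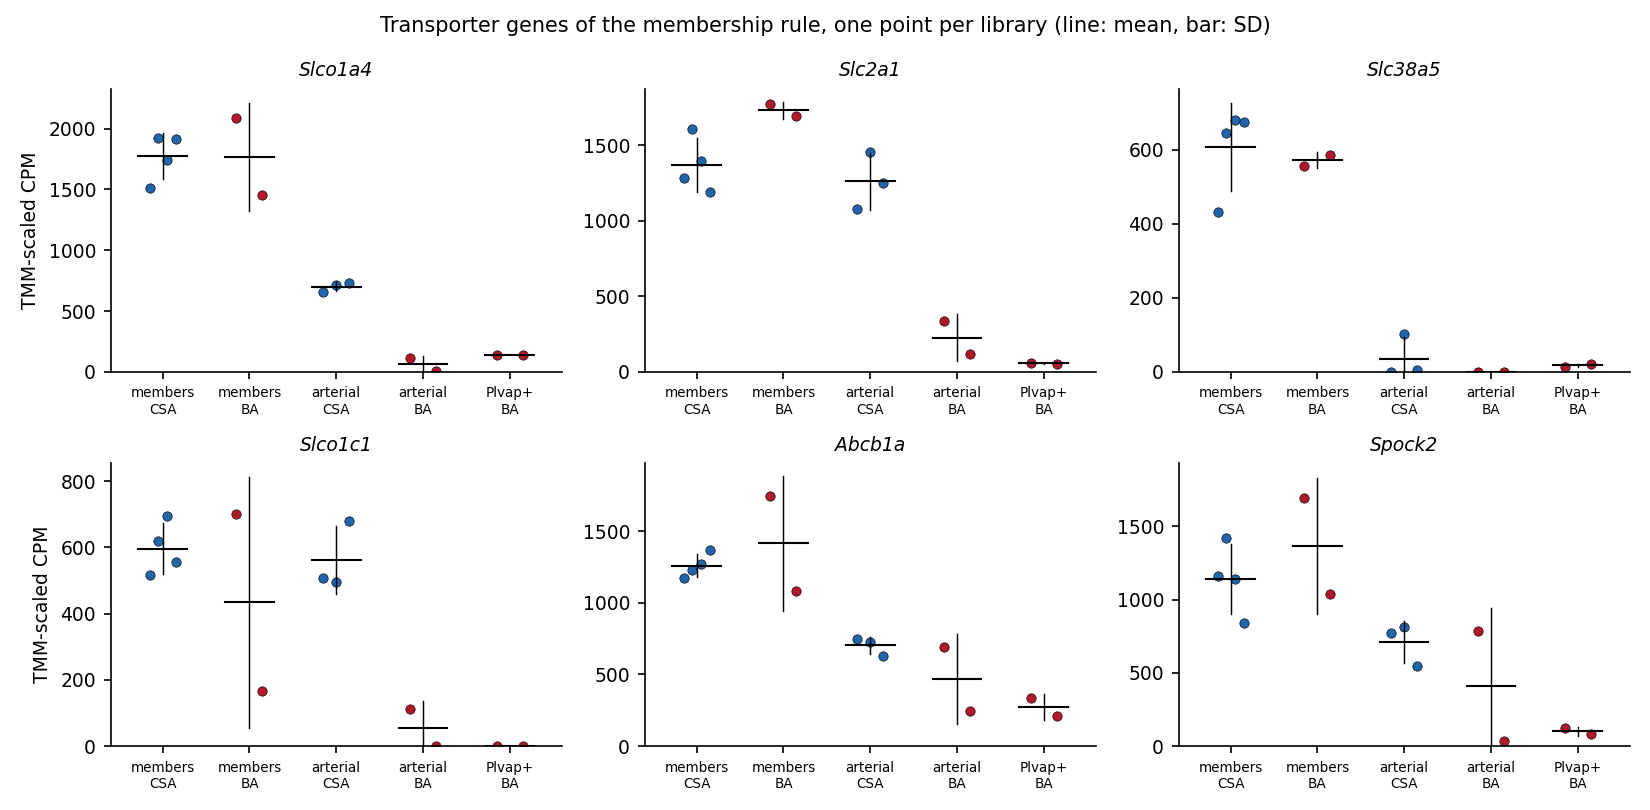
Levels of the 6 transporter genes of the membership rule (vertical axis, TMM-scaled CPM from 0) in members, arterial and Plvap-positive endothelial cells of the cortical surface (CSA) and bone-associated (BA) preparations; each point is 1 library, lines are means and bars SD, cut at 0. Members of both preparations, which were chosen for these genes, sit far above Plvap-positive cells. Arterial cells of the cortical surface lie above bone-associated ones for Slco1a4, Slc2a1 and Slco1c1.

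Among the general endothelial genes of the rule, the tight junction gene Cldn5 stood at 4994, 8459, 7539 and 8173 in members of the cortical surface libraries and at 5301 and 7186 in the bone-associated ones, and at 531 and 466 in Plvap-positive cells of the latter. Pecam1 ranged from 391 to 574 in members and Ly6c1 from 1898 to 2478. Flt1, a receptor for vascular endothelial growth factor, ranged from 1851 to 2825. In these the preparations overlapped. Of the arterial genes, Fbln5 reached at most 6.35 and Cytl1 was at 0 in every library's members.

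The makeup of the endothelium, as divided by the rule, differed between the libraries of the 2 preparations. Members made up 70.4% (95% exact binomial interval 58.4 to 80.7), 74.1% (67.5 to 80.0), 81.5% (71.3 to 89.2) and 74.8% (68.3 to 80.5) of the 71, 201, 81 and 206 endothelial cells of cortical surface libraries 1 to 4. In the bone-associated libraries they made up 16.8% (11.4 to 23.5) of 161 and 13.1% (10.0 to 16.7) of 421 endothelial cells. The groups did not overlap, and the mean share was 75.2% ± 4.61 (SD, n = 4) against 14.9% ± 2.62 (SD, n = 2). The exact permutation test (two-sided) gave p = 0.0667, the smallest value that 15 splits of 6 libraries allow. It could not fall under 0.05, and the rule's own genes set these shares, so nothing is concluded from it. Plvap-positive cells showed the reverse, with 1, 7, 1 and 0 cells in the cortical surface libraries (the 0 of 206 has an exact upper limit of 1.77%) and 85 and 267 in the bone-associated ones, where they were 52.8% and 63.4% of endothelial cells. Arterial cells, with at least 3 of the 6 arterial genes and no Plvap, were 23.9%, 12.9%, 7.41% and 19.9% of cortical surface and 11.8% and 10.5% of bone-associated endothelial cells. The intervals cover counting error only, and the vessels and the way they were dissected cannot be told apart. Since the rule bars Plvap, a deeper cell is barred more easily. With every cell thinned to 1500 UMIs before the rule was applied, members were 26.4% and 13.3% of bone-associated endothelial cells and at least 70.2% of those of each cortical surface library.

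**Figure D2:**
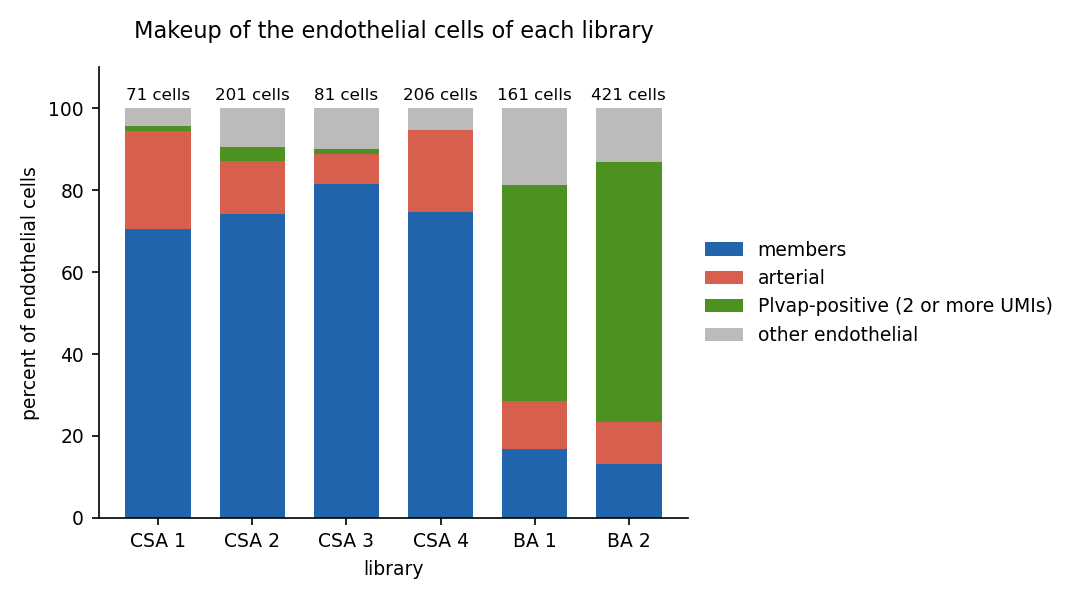
Percent of endothelial cells (vertical axis, stacked from 0 to 100) that were members, arterial, Plvap-positive or other in each of the 6 libraries, with the number of endothelial cells above each bar. Members fill at least 70.4% of each cortical surface bar and at most 16.8% of each bone-associated bar.

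The main question was whether members differ between the cortical surface and the tissue of the skull. UMIs of members were summed per library, and a gene was called at an adjusted p under 0.05 and a log2 fold change of at least 1.3 in edgeR's quasi-likelihood test, the fold and detection limits being those of the study. Of 7718 genes tested, 74 were called (0.959%): 73 were higher in bone-associated members (0.946%) and 1 in cortical surface members (0.013%). This direction depended on the detection limit, since without it 227 genes were called, 114 higher in bone-associated and 113 in cortical surface members. The 73 included 6 of the 16 genes of the immediate-early list. No call fell in 10 lists, among them those of transporter, junction, Wnt, capillary and metabolic genes. With 0.959% of all genes called, this is near the background and is not a result about those lists. Every called gene had libraries that did not overlap between the preparations. Genes were called for such a gap, and the share without overlap among all genes tested was not counted, so this adds no support to the calls. In sums over cells, fewer cells with a gene and less of its RNA per cell cannot be told apart. The identifiers and places (GRCm38) of 4 called genes described below are Icam1, ENSMUSG00000037405, chr9:21015985-21028817; Irf1, ENSMUSG00000018899, chr11:53770014-53778374; Mgp, ENSMUSG00000030218, chr6:136872435-136875823; and Selp, ENSMUSG00000026580, chr1:164115264-164150026.

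Immediate-early genes have RNAs that appear within minutes of stimulation and also during tissue dissociation. The list of 16 used here also holds the heat shock genes Hspa1a and Hspa1b. Of the 16, 6 were higher in bone-associated members. The median log2 fold change of the list was -1.97 against 0.01 over all genes tested (negative is higher in bone-associated members). DESeq2 called 2 of the 16. Ier3, a stress-induced survival gene, stood at 243, 593, 234 and 249 in cortical surface libraries 1 to 4 and at 2053 and 2268 in the bone-associated libraries. Both bone-associated values were far above the highest cortical surface value, with a log2 fold change of -2.66 ± 0.32 (SE, adjusted p = 0.000302). Egr1, a zinc finger transcription factor, stood at 78.3, 353, 68.8 and 44.5 against 1631 and 1085, and Zfp36, which speeds the decay of cytokine RNAs, at 243, 717, 258 and 198 against 1201 and 2394. Cortical surface library 2 was the highest of its group in each. Their log2 fold changes were -3.19 ± 0.52 (adjusted p = 0.00341) and -2.29 ± 0.40 (adjusted p = 0.00668). Atf3, Nr4a1 and Ier2 were the other 3, with log2 fold changes of -3.13, -2.42 and -1.82. Fos and Jun did not pass the test: Fos stood at 734, 1568, 27.5 and 54.4 against 3328 and 3362 (adjusted p = 0.425), and Jun at 1220, 2324, 492 and 435 against 3644 and 4155 (adjusted p = 0.146). The spread within the cortical surface group was thus itself large: in Fos and Jun libraries 1 and 2 lay above 3 and 4, while in Ier3, Egr1 and Zfp36 library 2 alone stood apart.

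The low levels of libraries 3 and 4 were also seen outside the members. Levels were summed over the 16 genes of the immediate-early list, Hspa1a and Hspa1b included. Members stood at 10002, 16257, 3281 and 3092 in the cortical surface libraries and at 26169 and 33508 in the bone-associated ones. To these sums Hspa1a gave 925, 2587, 11 and 93 UMIs in the cortical surface libraries and 564 and 1750 in the bone-associated ones. Hspa1b gave 881, 2671, 19 and 94 against 677 and 1675. The sums are thus partly heat shock RNA. Arterial cells stood at 17856, 25850 and 11495 in cortical surface libraries 1, 2 and 4 and at 25839 and 17070 in the bone-associated libraries. T cells, in CPM without TMM scaling, stood at 5921, 7559, 1547 and 1939 against 6623 and 8435. Members and T cells of cortical surface libraries 3 and 4 were therefore both low, and arterial cells were lowest in cortical surface library 4. T cells and arterial cells of the preparations overlapped, whereas members did not. What part a change shared by these cell types had in the difference was not tested. Against bone-associated members, cortical surface libraries 1 and 2 alone gave 50 called genes and libraries 3 and 4 alone 130, of which 44 and 66 were among the 74.

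**Figure D3:**
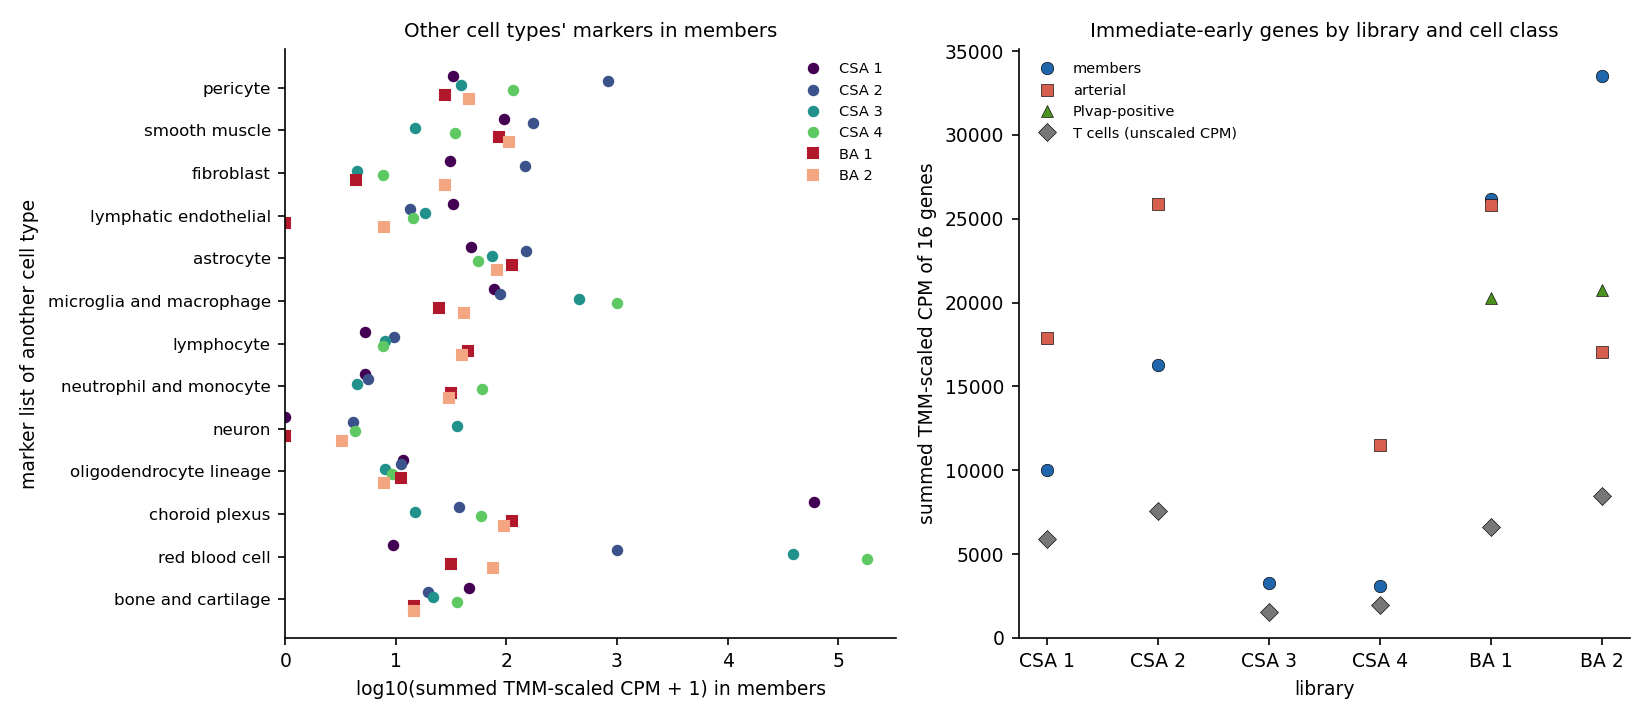
Left, summed level of the markers of 13 other cell types in members of each library (horizontal axis, log10 of TMM-scaled CPM + 1); red blood cell markers stand out in CSA 3 and CSA 4 and choroid plexus markers in CSA 1. Right, summed level of the 16 genes of the immediate-early list, Hspa1a and Hspa1b included (vertical axis, from 0), by library in members, arterial, Plvap-positive and T cells. Members reach 33508 in BA 2 and fall to 3092 in CSA 4.

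Icam1, Irf1, Socs3 and chemokine genes were also higher in bone-associated members. Most genes of the interferon list and of the leukocyte adhesion and chemokine list were not called. Icam1, the adhesion molecule that arrests leukocytes, stood at 157, 209, 79.2 and 93.9 in cortical surface libraries 1 to 4 and at 554 and 696 in the bone-associated ones (log2 fold change -2.13 ± 0.29, adjusted p = 0.000823). Irf1, a transcription factor of interferon responses, stood at 76.1, 101, 65.4 and 92.3 against 406 and 552 (-2.45 ± 0.22, adjusted p = 1.45e-05). In both genes every cortical surface library lay below the bone-associated ones, and in Icam1 libraries 1 and 2 lay above 3 and 4. Socs3, an inhibitor of cytokine signalling, stood at 23.3, 170, 0 and 11.5 against 547 and 1261 (-3.81 ± 0.68, adjusted p = 0.00668). Of 20 interferon-induced and MHC class I genes, Irf1 was the only one called, and the list's median was -0.25. Of 9 leukocyte adhesion and chemokine genes tested, 2 were called, both chemokines, Cxcl10 and Cxcl1, and DESeq2 called 1. The adhesion genes Icam1 and Selp, both called, are counted in the venous list instead. Cxcl10 stood at 16.9, 18.6, 0 and 4.94 against 282 and 342 (-4.60 ± 0.37, adjusted p = 1.33e-05). Its UMIs came from few cells, 4 of 27 and 11 of 55 bone-associated members, and 1 cell held 72.6% of those of library 1 and another 68.4% of those of library 2. Cxcl1 stood at 14.8, 37.9, 10.3 and 6.59 against 171 and 54.0 (-2.32 ± 0.51, adjusted p = 0.0364). It was found in 4 of 27 and 5 of 55 bone-associated members, and 1 cell held 66.7% of its UMIs in library 1 and another 50% in library 2.

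Of 14 venous genes tested, 3 were higher in bone-associated members, and the list median was -0.54. Selp, the P-selectin on which leukocytes roll, had 2 UMIs in the 419 cortical surface members and 66 in the 82 bone-associated members, a ratio per UMI of 116 (95% counting interval 30.9 to 977). It was found in 5 of 27 and 8 of 55 bone-associated members, with 60.4% of its UMIs in library 2 from 1 cell. Icam1 is the second, and Ptgs1, which makes prostaglandin precursors, the third, at 12.7, 27.9, 31.0 and 31.3 against 77.2 and 110 (-1.84 ± 0.33, adjusted p = 0.00668). Ackr1 was not called. Without thinning it was found in 16%, 10.7%, 6.06% and 6.49% of cortical surface members and in 33.3% and 20% of the more deeply read bone-associated members, with 60.8% of its UMIs in bone-associated library 1 from 1 cell.

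The arterial and Notch lists gave 1 call each and the peripheral endothelial list 2. Mgp, the matrix Gla protein that inhibits calcification, stood at 220, 129, 231 and 160 in cortical surface libraries 1 to 4 and at 654 and 991 in the bone-associated ones (-2.15 ± 0.26, adjusted p = 0.000254). It was the only one of 11 arterial genes called, and it was far more abundant in arterial cells, at 7914 to 14648. The arterial list, which holds Mgp, summed to 883 CPM without TMM scaling in T cells of bone-associated library 2. In T cells of the other libraries it summed to 27.8 to 98.9. The part of free RNA in the call was not tested. Hes1, a target of Notch, stood at 129, 231, 110 and 140 against 570 and 500 (-1.73 ± 0.25, adjusted p = 0.00153), the only call of 8 Notch genes. Rgs16 and Lrg1, of 8 fenestrated and peripheral endothelial genes tested, were called at -2.50 and -1.30, and the median of that list was -1.34. DESeq2 called 0 of the 8, and of 23 alternatives Lrg1 lost the call in 11 and Rgs16 in 4. Emp1, a membrane protein of growth responses, stood at 8.46, 3.87, 3.44 and 4.94 against 77.2 and 101 (-4.10 ± 0.38, adjusted p = 2.34e-05). In bone-associated library 1 only 3 of 27 members held it, and 1 cell gave 73.9% of its UMIs. Cd14, the co-receptor for bacterial lipopolysaccharide, differed widely within the bone-associated group, at 36.9 and 336, with at most 21.4 in cortical surface members (-4.41 ± 0.65, adjusted p = 0.00162). In bone-associated library 1 a single cell gave 63.6% of its UMIs, and likewise 50% of those of Rgs16. Dusp2, a phosphatase that ends MAP kinase signals, was called at -4.26 ± 0.62 (adjusted p = 0.00161). Within the detection limit, the call in the other direction was Car5a, a mitochondrial carbonic anhydrase, at 31.7, 51.9, 55.1 and 34.6 against 10.1 and 2.25 (2.98 ± 0.57, adjusted p = 0.0123).

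**Figure D4:**
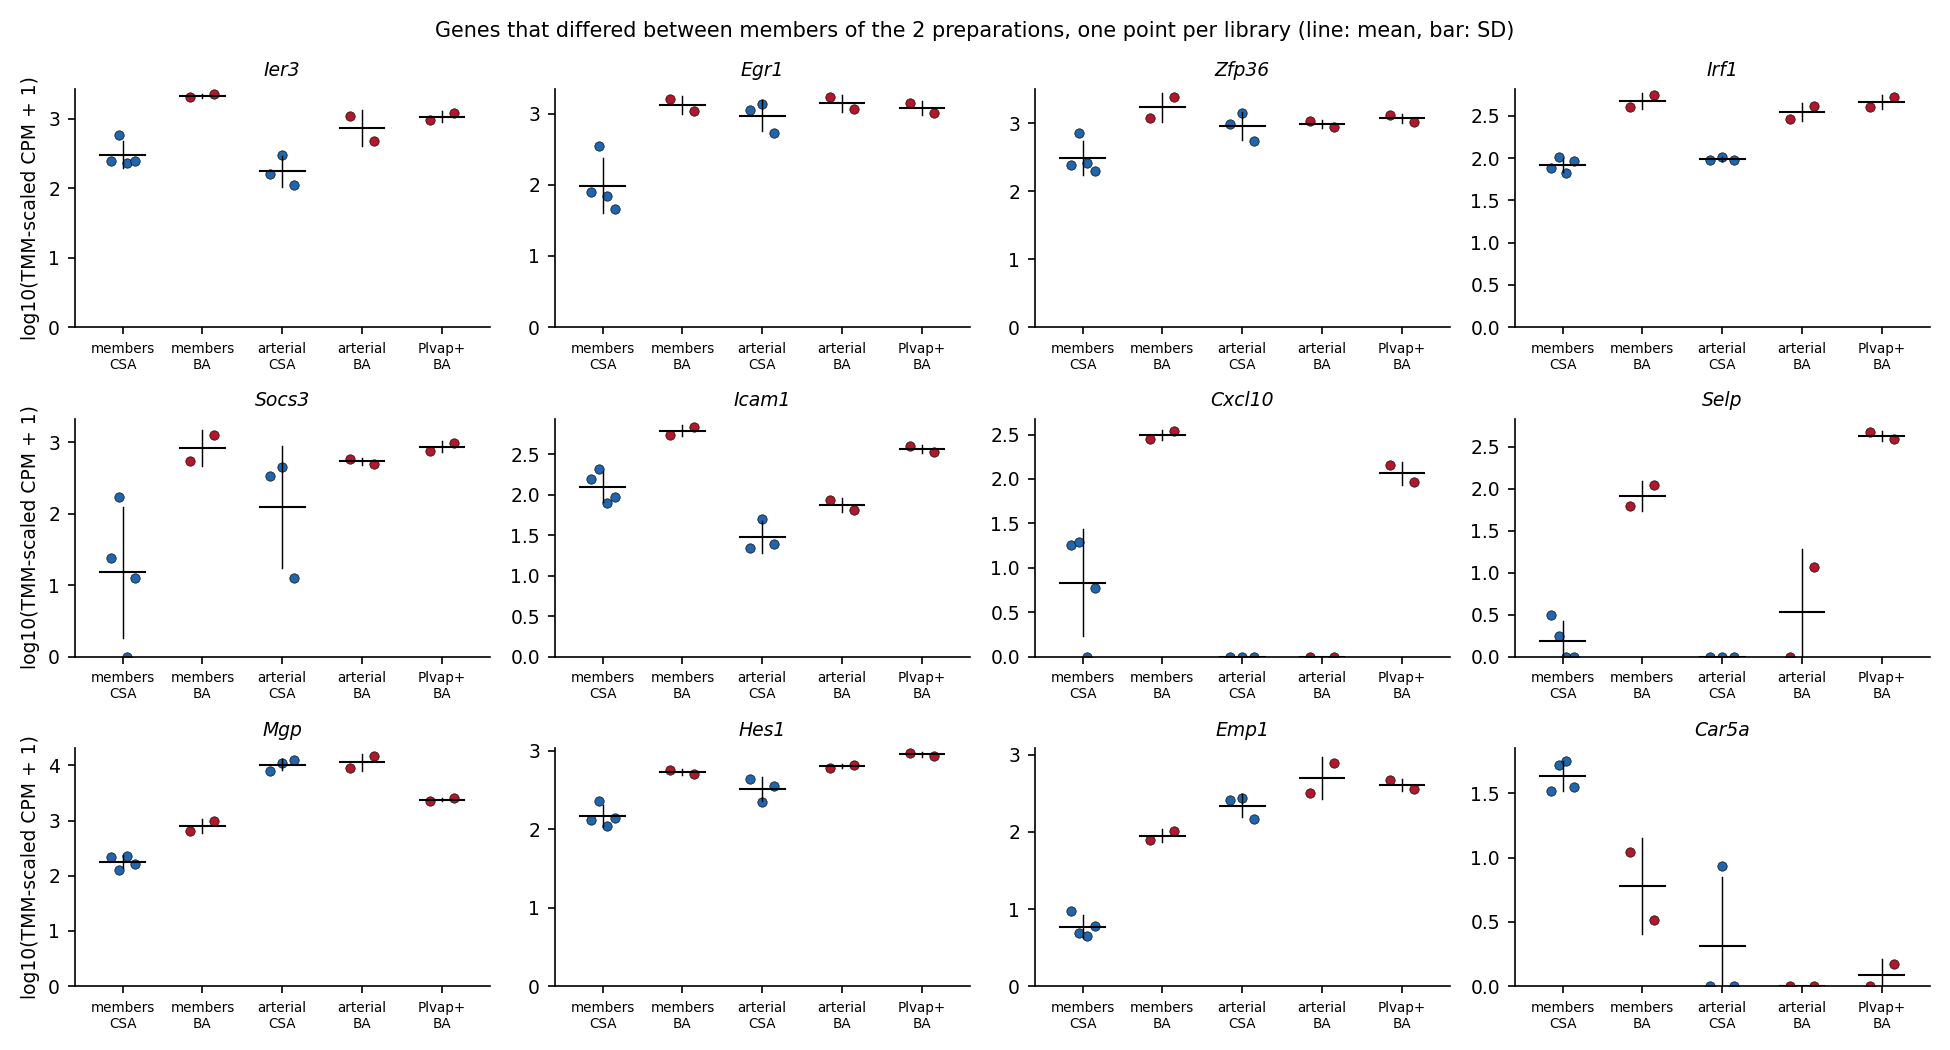
Levels of 12 of the genes called between the preparations (vertical axis, log10 of TMM-scaled CPM + 1) in members, arterial and Plvap-positive endothelial cells of the cortical surface (CSA, blue) and bone-associated (BA, red) preparations; each point is 1 library, lines are means and bars SD. Members of the 2 preparations do not overlap in any of them, since called genes were chosen, and Car5a alone is higher in the cortical surface.

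Of the 21 named genes, 7 (Cxcl10, Emp1, Icam1, Ier3, Irf1, Mgp and Selp) were called in each of the alternatives that tested them, and the others lost the call in at least 1. Cxcl10, Emp1 and Selp passed the detection limit only through bone-associated members, 18.29%, 21.95% and 15.85% of which held them. Of cortical surface members 2.864%, 2.148% and 0.4773% did. No alternative was set to leave out the single cells named above that held most of their UMIs in a library, so the alternatives do not address those cells. Without bone-associated library 2 the fit called 23 genes, 22 of them among the 74, and without bone-associated library 1 it called 65, 51 of them among the 74; each then has 1 bone-associated library, assumed to vary like the cortical surface ones. With cells thinned to 1500 UMIs 35 genes were called, with DESeq2 53, and without cells that held 2 or more genes of another cell type's list (the red blood cell list aside, an alternative chosen after seeing the data) 95.

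Because 6 of the called genes are immediate-early genes, the called genes' promoters are shown for motifs known from such genes. RefSeq windows of 250 bases before to 50 after a start (GRCm38.p6) were found for 55 of the 73 genes. The kappaB site, bound by NF-kappaB, was found on either strand in windows of 8 of the 55 genes (14.55%) and of 5.14% of all 27025 genes with a window. TGANTCA, with any base at N and so wider than the AP-1 site TGA(C/G)TCA, was found in 9 (16.4%) against 8.97% of all. The cyclic AMP response element TGACGTCA was found in 5 (9.09%) against 2.03%, and the CArG box of serum response factor in 2 (3.64%) against 1.81%. Some genes have several windows. Counted by window, the shares were 10.81% against 4.505% for the kappaB site and 14.86% against 7.808% for TGANTCA. They were 6.757% against 1.79% for TGACGTCA and 2.703% against 1.629% for the CArG box. The motifs were searched one by one, so a stretch that fits more than 1 counts for each. The 250 bases before the start are printed 5′ to 3′ on the gene's strand for 4 called genes, with these motifs in capitals: 2 kappaB sites and 1 AP-1 site in Cxcl10 (chr5:92348890-92349139, minus strand), 1 kappaB site each in Ier3 (chr17:35821463-35821712, plus strand) and Irf1 (chr11:53769764-53770013, plus strand), and 1 CArG box in Zfp36 (chr7:28379229-28379478, minus strand).
Cxcl10: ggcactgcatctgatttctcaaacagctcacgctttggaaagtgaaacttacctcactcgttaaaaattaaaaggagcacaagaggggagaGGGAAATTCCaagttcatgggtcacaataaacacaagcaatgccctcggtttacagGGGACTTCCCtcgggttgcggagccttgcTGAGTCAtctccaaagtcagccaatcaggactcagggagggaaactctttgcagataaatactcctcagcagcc
Ier3: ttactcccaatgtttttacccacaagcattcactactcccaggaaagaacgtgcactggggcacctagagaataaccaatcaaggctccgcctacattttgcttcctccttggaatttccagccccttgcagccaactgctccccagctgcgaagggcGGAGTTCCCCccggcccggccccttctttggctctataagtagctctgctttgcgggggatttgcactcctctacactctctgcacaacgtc
Irf1: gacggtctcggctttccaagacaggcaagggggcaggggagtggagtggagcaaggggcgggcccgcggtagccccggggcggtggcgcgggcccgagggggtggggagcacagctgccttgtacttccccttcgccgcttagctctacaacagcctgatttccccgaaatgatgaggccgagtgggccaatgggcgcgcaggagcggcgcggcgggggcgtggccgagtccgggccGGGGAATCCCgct
Zfp36: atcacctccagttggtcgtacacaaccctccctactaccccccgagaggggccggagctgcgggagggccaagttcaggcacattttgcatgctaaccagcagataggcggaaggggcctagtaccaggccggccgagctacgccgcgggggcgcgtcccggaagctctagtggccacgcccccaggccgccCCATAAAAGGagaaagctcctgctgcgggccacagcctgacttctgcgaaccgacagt
A match describes these letters and is no measured binding site.

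Barrier genes outside the rule made no call between the preparations. Of 25 efflux and solute transporters, 14 junction genes, 17 Wnt and beta-catenin genes, 17 barrier transcription factors, 15 transcytosis and receptor genes, 9 capillary genes, 9 VEGF and angiopoietin genes, 12 basement membrane genes, 11 metallothionein and stress genes and 15 glycolysis and mitochondrial genes tested, 0 were called by edgeR or by DESeq2. Of these 144 genes, 17 had an unadjusted p under 0.05, and the list medians lay between -0.44 and 0.11. With 0.959% of all genes called, few or no calls among 144 genes is near the background, so the 0 is not a result about these lists. The rule's own barrier genes were not tested. Lef1 stood at 379, 366, 413 and 412 against 399 and 338, and Ocln at 186, 276, 244 and 198 against 258 and 200. The preparations overlapped in both. Slc7a5, the large neutral amino acid transporter, varied more, at 512, 625, 289 and 211 against 832 and 354. With 2 bone-associated libraries a miss of the threshold does not show that these genes were equal.

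**Figure D5:**
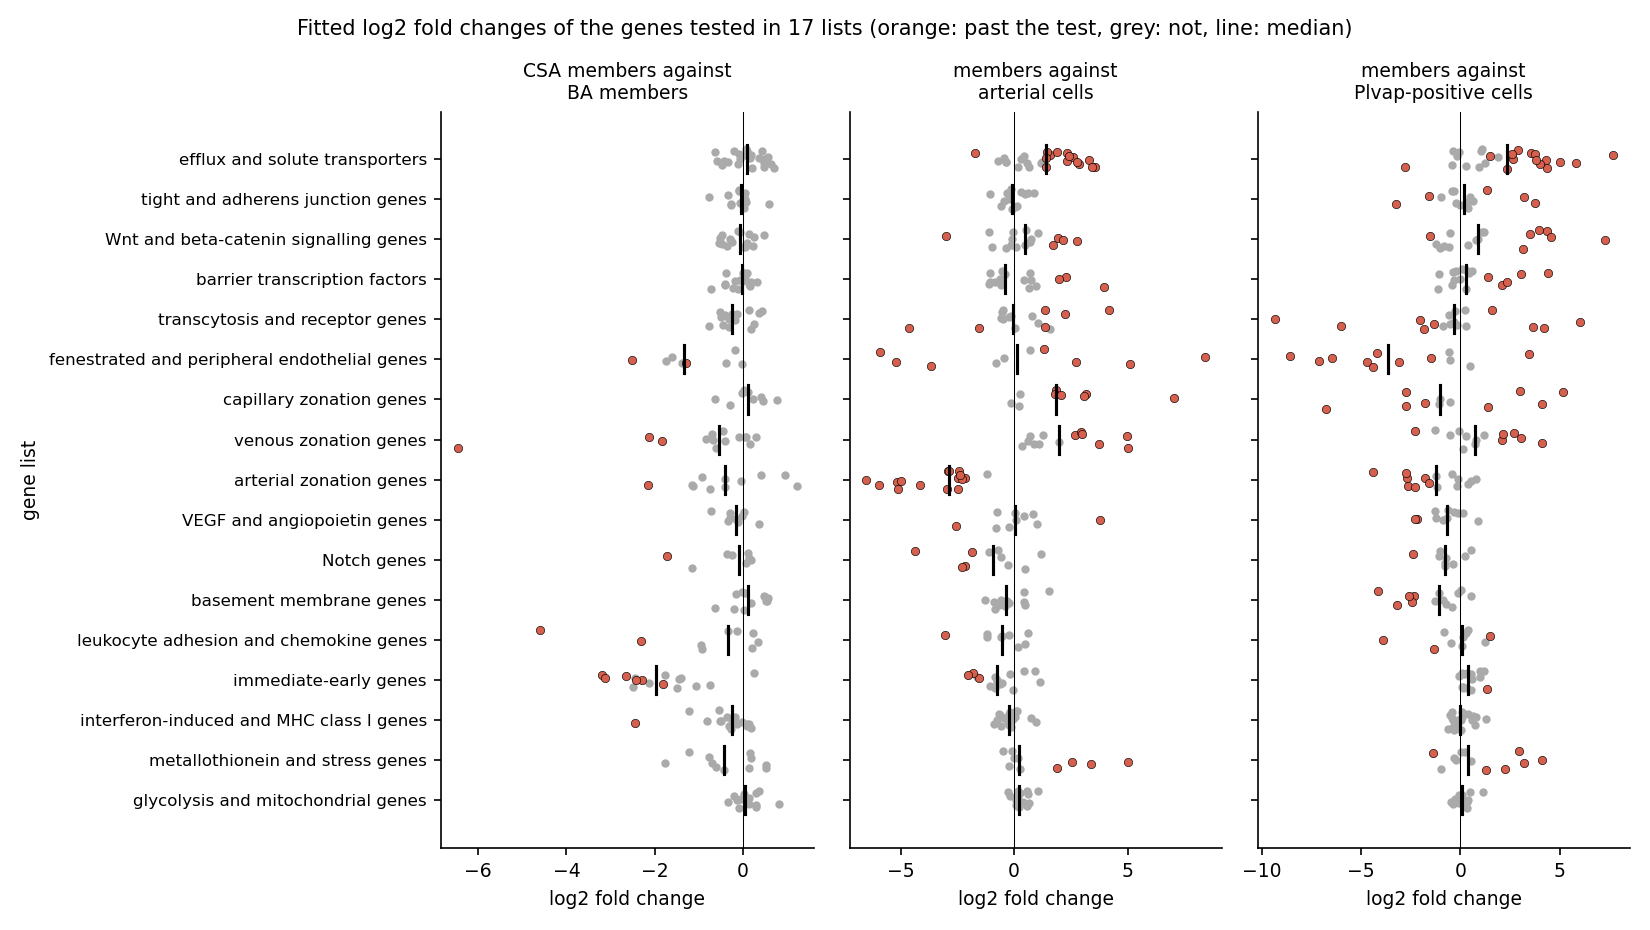
Fitted log2 fold changes (horizontal axes) of each gene tested in 17 lists, in 3 comparisons of members; orange points passed the test, grey points did not, and black lines are list medians. In the left panel the transporter, junction and Wnt lists centre on 0 while the immediate-early list lies to the left (median -1.97). In the other panels transporters lie to the right (medians 1.40 and 2.34).

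Members were next set beside arterial endothelial cells of the same 5 libraries (435 and 147 cells; cortical surface library 3 had only 6 arterial cells and was left out). The 2 groups were split by rule genes read in the same cells, so genes that go with those had to differ: the calls describe the split and are no independent evidence for it. Of 7632 genes tested outside the rule, 612 were called (8.02%), of which 264 were higher in members (3.46%) and 348 lower (4.56%). Members were richer in further transporters, with 14 of 26 higher and Abcc1 lower. Slc16a1, which carries lactate and ketone bodies, stood between 277 and 556 in members of these libraries and at most at 78.6 in arterial cells (log2 fold change 3.55 ± 0.44, adjusted p = 0.000106). Slc22a8 (3.42 ± 0.39, adjusted p = 5.13e-05) and Slc7a5 (3.30 ± 0.37, adjusted p = 4.94e-05) did not overlap either. Tfrc, the transferrin receptor that brings iron across, stood between 87.8 and 248 in members and at most at 18.9 in arterial cells (4.19 ± 0.36, adjusted p = 5.68e-06).

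Capillary and venous genes were higher in members than in arterial cells. Of 9 capillary genes 6 were higher and none lower, among them Car4, with 1364 UMIs in members and 3 in arterial cells, a ratio per UMI of 152 (95% counting interval 52.0 to 739), Itm2a (3.15 ± 0.44) and Kdr, the main VEGF receptor (2.07 ± 0.20). Of 13 venous genes 6 were higher and none lower, among them the interleukin receptor Il1r1 (3.75 ± 0.26) and Lcn2, with 292 UMIs against 3. Ackr1 had 259 UMIs in members and none in arterial cells, at least 28.9-fold higher with a floor of 3 counts over the group. Nr2f2, which sets vein identity, was higher by 3.96 ± 0.47 on the log2 scale (adjusted p = 6.53e-05). Of 17 Wnt genes, 4 were higher, Lef1, Tnfrsf19, Nkd1 and Notum, and Reck, a co-receptor for Wnt7, was lower (-2.99 ± 0.49), except in bone-associated library 1, where it stood at 63.7 in members and 26.6 in arterial cells. The call of Notum was lost in 8 of 17 alternatives. Of 75 genes named in this comparison, 53 were called in each alternative that tested them. Of 17 barrier transcription factors, 3 were higher, Foxl2 and Nr2f2 among them, and none was called lower, while the list median was -0.39 and 9 of the 17 had a negative fold change.

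Arterial genes went the other way, with 15 of 16 lower in members and a list median of -2.89. Gja4, a connexin of arteries, stood between 0 and 6.76 in members of the 5 libraries and between 199 and 494 in arterial cells (-5.95 ± 0.30, adjusted p = 8.95e-08). Efnb2 (-2.91 ± 0.19), the arterial ephrin, and Dll4 (-2.49 ± 0.28), a Notch ligand, were also lower, and of 10 Notch genes 4 were lower, among them Hey2 and Notch4. Dkk2 had no UMI in members and 100 in arterial cells, which is at least 99.6-fold lower in members. Smooth muscle genes moved with this difference: Acta2, Tagln and Tpm2 were 3 of 4 tested and lower in members, and the smooth muscle list summed to 1174, 328, 11.7, 1811 and 127 in arterial cells of the 5 libraries against at most 171 in members. Hemoglobin genes moved the other way, with 4 of 4 tested higher in members by edgeR and 0 by DESeq2, and stood between 21919 and 89761 in members of cortical surface library 4. In cortical surface library 3, which was left out, the 6 arterial cells held more hemoglobin than members, 406043 against 39025 CPM without TMM scaling. The astrocyte gene Slc1a3 was higher in members too (1.97 ± 0.59, adjusted p = 0.0415). DESeq2 did not call it, and its call was lost in 7 of 17 alternatives. The part of these lists in the other calls was not tested.

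Junction genes, basement membrane genes, interferon and MHC class I genes and glycolysis and mitochondrial genes, 60 tested, gave 0 calls by edgeR or DESeq2 against arterial cells, and 26 of them had an unadjusted p under 0.05. Metallothioneins, small proteins that bind zinc and copper, were higher in members: Mt1 stood between 704 and 1429 against at most 485 in arterial cells (2.54 ± 0.32, adjusted p = 0.000103), and Mt2 was higher by 1.88 ± 0.34. Egr1, Fos and Nr4a1 were lower in members (-1.81, -1.55 and -2.02). For Egr1 and Fos that gap lay mainly in the cortical surface libraries. In the bone-associated ones Egr1 stood at 1631 and 1085 in members against 1694 and 1151 in arterial cells. Fos stood there at 3328 and 3362 against 6030 and 2676. Nr4a1 stayed lower in members of both bone-associated libraries, at 476 and 554 against 1129 and 646. The call was lost in 9 of 19 alternatives for Fos, in 6 of 19 for Egr1 and in 1 of 19 for Nr4a1. The test of the difference between preparations, chosen after seeing the data, passed for Egr1 (adjusted p = 0.000144 by edgeR), Fos (0.0256) and Nr4a1 (0.00348).

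In the bone-associated libraries, members could be set beside Plvap-positive endothelial cells (82 and 352 cells, 2 libraries each, with the library as a block). This fit left 1 residual degree of freedom and leaned on the spread shared across genes, and Plvap itself made the split, so the values are again a description. Of 8146 genes tested, 711 were called (8.73%), of which 326 were higher in members (4.0%) and 385 lower (4.73%), and DESeq2 called 182 and 159. Slc38a3, a glutamine transporter, had 111 UMIs in members and none in Plvap-positive cells, at least 142-fold higher with a floor of 3 counts over the group. Of 25 transporters 14 were higher and Slc29a1, a nucleoside transporter, was lower. Slc22a8 stood at 252 and 119 in members and at 7.50 and 0.496 in Plvap-positive cells of the same libraries. Slc40a1, the iron exporter ferroportin, stood at 302 and 137 against 6.43 and 5.45. Members of both libraries were thus far above the Plvap-positive cells in each.

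Wnt targets and barrier transcription factors followed. Lef1 stood at 399 and 338 in members and at 26.8 and 20.3 in Plvap-positive cells (3.97 ± 0.24), Axin2 at 107 and 33.8 against 5.35 and 6.94 (3.17 ± 0.44), and Tnfrsf19 at 211 and 277 against 17.1 and 6.94 (4.54 ± 0.29). In all, 6 of 17 Wnt genes were higher and Lrp5 was lower. Of 17 barrier transcription factors, 5 were higher, Foxq1 (3.03 ± 0.23), Foxf2, Ppard and Foxl2 among them, and none was called lower, with a list median of 0.27. Of 14 junction genes, Ocln (3.78 ± 0.27), Lsr, the angulin of tricellular junctions (3.21 ± 0.22), and Tjp1 (1.34 ± 0.17) were higher, while Jam3 and Mpdz were lower. Mfsd2a, which transports lipid and holds down transcytosis, stood at 117 and 104 against 10.7 and 2.97.

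Genes of peripheral and fenestrated endothelium were lower in members, 8 of 12 tested, with Ackr1 the only one higher and a list median of -3.65. Igfbp3 stood at 10.1 and 20.3 in members and at 1424 and 1419 in Plvap-positive cells. Fabp4, a fatty acid binding protein, had 1 UMI in members and 1690 in Plvap-positive cells, a ratio per UMI of 440 (95% counting interval 78.9 to 17400 in favour of the latter). Cd36, which takes up fatty acids, had none against 257, at least 22.3-fold lower, and Btnl9, a butyrophilin-like gene, none against 461, at least 40.0-fold lower. Plpp3 (-4.19 ± 0.17) and Plpp1 (-3.11 ± 0.19), phosphatases of lysolipids, were also lower. Of 13 basement membrane genes 5 were lower and none higher, among them Col4a1, at 329 and 239 against 1477 and 1306. Of 11 capillary genes 4 were higher, among them Car4 and Itm2a, and 4 lower, among them Cd300lg and Lpl, with a list median of -0.9995. Markers of other cells moved with the comparison: 3 of 4 smooth muscle genes (Acta2, Tagln and Myl9), the fibroblast gene Dcn and the pericyte gene Abcc9 were lower in members. Of 2 astrocyte genes tested, Slc1a3 was higher (18 UMIs against 1) and Gja1 lower (-2.02). The smooth muscle list summed to 83.9 and 104 in members and to 76.0 and 772 in Plvap-positive cells, and the part of these cells in the other calls was not tested. Of 86 genes named in this comparison, 60 were called in each alternative that tested them. Of 15 arterial genes 7 were lower in members and none higher. Of 14 venous genes 5 were higher in members, with a list median of 0.76, and Selp was the only one lower. Selp stood at 469 and 385 in Plvap-positive cells against 60.4 and 108 in members. The sums of Cxcl10 were higher in members, at 282 and 342 against 142 and 92.2. Those sums rest on the single cells named above. Interferon and MHC class I genes and glycolysis and mitochondrial genes, 35 tested, gave 0 calls by either tool, with 15 at an unadjusted p under 0.05.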

How the data were processed

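The deposited matrices held UMI counts per gene and cell, which the authors made with Cell Ranger on mm10 (version 3 in the submitters' processing notes, 6.1.2 in the file headers), with no normalization. Of 17560 barcodes, the 8804 that passed a minimum of 500 genes and a mitochondrial limit of 10% were kept, and doublets were scored but left in (8 members scored as likely doublets). Sums of UMIs over the cells of a class in each library were tested with edgeR 4.0.16 (quasi-likelihood, TMM, Benjamini-Hochberg adjustment) on genes detected in more than 10% of cells in at least 1 of the compared groups. The SE is the log2 fold change over the root of F. The 19 rule genes were not tested. Alternatives included DESeq2 1.42.0, other scalings and filters, thinning to 1500 UMIs and leaving out libraries. Member sums held 454195, 1242360, 293276 and 727969 UMIs in cortical surface libraries 1 to 4 and 292070 and 481503 in the bone-associated libraries.

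Genes named were, in each list, the called genes up to 6 by size of change and the 4 of highest level. To these were added, in each comparison, the 6 largest changes in each direction with at least 50 UMIs and a like direction in all libraries, and the rule genes. Those tested but not called (Fos, Jun, Ackr1) and a few others were named after their values were seen. The members, lists and tests were chosen with earlier results of these data known. The list counts include 1 gene that is not reported here by name. Gene places are from GENCODE M21 and promoter windows from RefSeq. The scripts were tested on simulated data. Python 3.11.15 and R 4.3.3 were used.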

Additional observations from a re-analysis of the deposited data

Results flagged for a closer look

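In cortical surface library 2, members stood above the other 3 libraries of the preparation for Egr1 (353 TMM-scaled CPM), Atf3 (341), Ier3 (593), Zfp36 (717), Ier2 (702) and Socs3 (170). In cortical surface library 1 Slc38a5 was low, at 431. Over the 5 libraries compared with arterial cells, members stood apart in bone-associated library 1 for Reck (63.7) and Mt1 (1429), in cortical surface library 2 for Gja5 (0.774), in cortical surface library 1 for Hey2 (12.7) and in bone-associated library 2 for Pi16 (2.25). Car4 reached 11.3 in arterial cells of cortical surface library 2 and was 0 in the other arterial sums. A library stood apart in 21 of 119 groups looked at, hemoglobin genes included; the limit used passes about 1 in 20 groups by chance, and the groups share libraries.

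Hemoglobin genes stood apart in cortical surface library 4. Hba-a1 was at 39186 in members and 643 in arterial cells, Hba-a2 at 32416 and 673, Hbb-bs at 89761 and 1936, and Hbb-bt at 21919 and 333.

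The difference between members and arterial cells was compared between preparations for 42 genes of the text in a fit chosen after seeing the data. Values are the cortical surface difference minus the bone-associated one, on the log2 scale. It was above 0 for Cd36 (9.58), Fabp4 (5.61), Hba-a1 (6.04), Hba-a2 (5.32) and Hbb-bs (5.48). It was below 0 for the transporters Slc22a8 (-6.36), Slc16a1 (-4.54) and Slc40a1 (-3.62), which bone-associated arterial cells almost lacked, and for Itm2a (-2.85). Of Wnt genes, Tnfrsf19 (-3.14), Reck (-3.12) and Lef1 (-2.43) were below 0, as were Igfbp3 (-2.96), Mgp (-2.17), Egr1 (-2.89), Nr4a1 (-2.11) and Fos (-2.04). Across all 7632 genes tested, 141 passed in this fit.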

How the results depend on the processing

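The difference in the share of members among endothelial cells lay between 56.8 and 62.1 percentage points in all 11 alternatives. Between preparations, 74 genes were called. Without a detection filter 227 were called (113 higher in cortical surface members), with cortical surface libraries 3 and 4 only 130, and with cells thinned to 1500 UMIs 35. Leaving out 1 library gave 23 (without bone-associated library 2) to 88 genes. The cause of these changes was not tested, except that leaving out libraries leaves fewer samples. Against arterial cells 612 genes were called, 1000 by adjusted p alone, 345 with edgeR's own filter added and 239 after thinning, and 528 to 574 when 1 library was left out. Against Plvap-positive cells 711 were called, 1291 by adjusted p alone, 341 by DESeq2 and 277 after thinning; leaving out a library could not be fitted there. The log2 fold change of Tagln against arterial cells turned to 0.62 without cells holding 2 or more genes of another cell type, and that of Myl9 against Plvap-positive cells to 0.90 without likely doublets. The other named genes kept their direction in the alternatives run.

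With the replicate number as a block, 67 genes were called between preparations, 54 of them among the 74. Same-numbered libraries deviated together with correlations of 0.033 and 0.030 over 2 pairs. With 2 bone-associated libraries, their deviations from the mean of the preparation mirror each other. The check therefore cannot decide whether same-numbered libraries shared more than a number.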
